A study of Mus musculus with 6 samples.

Results

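Peritubular myoid cells are flattened contractile cells that wrap each seminiferous tubule, and they share most of their contractile genes with the smooth muscle of blood vessels. In such cells actin and smooth muscle myosin slide past each other when calcium, bound to calmodulin, activates a kinase that phosphorylates the regulatory light chain of myosin. Many of these genes are driven by serum response factor with its coactivator myocardin, which bind a short AT-rich element called the CArG box. Described here are 10 of these contractile genes (*Acta2*, *Actg2*, *Myh11*, *Cnn1*, *Tagln*, *Des*, *Myl9*, *Lmod1*, *Mylk* and *Smtn*), chosen by name from the 54232 genes of the deposited count table, and each matched 1 row. All 10 passed the filter on low counts.

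The libraries were made from whole testes of B6D2F1 mice at postnatal day 12 (P12), 3 labelled *Dis3l2* WT (control) and 3 labelled *Dis3l2* KO. In the study's methods the knockout is a conditional one in male germ cells, *Stra8-Cre*; *Dis3l2* F/-, with littermates as controls, and Cre acts from P3 in part of the spermatogonia and on to spermatocytes before leptotene. The GEO design text names a *Dis3* conditional knockout instead. *Dis3l2* stood at 25.8, 23.5 and 23.0 CPM (reads counted for a gene relative to all counted reads of a library, scaled by TMM) in the controls and at 31.6, 25.4 and 27.5 CPM in the KO libraries, which overlap (log2 fold change 0.22, SE 0.11, edgeR's quasi-likelihood adjusted p = 0.136). *Dis3* stood at 133, 148 and 137 CPM against 59.1, 64.3 and 68.1 CPM, with no overlap (log2 fold change -1.13, SE 0.08, edgeR adjusted p = 2.71e-07). The *Dis3l2* count covers the whole gene in the whole testis, not the deleted part in germ cells. Its log2 fold change was -0.25 under the second scaling described in the next paragraph, so the *Dis3l2* count does not check the label either way. That of *Dis3* was -1.60 under the second scaling, and it passed in all 14 alternative settings listed below (-1.60 to -1.04). Whether the label or the design text names the right gene was not tested. For P12 conditional knockout testes the paper reports less *Dis3l2* mRNA by RT-qPCR and less DIS3L2 protein by immunoblot. By in situ hybridization it reports no *Dis3l2* in germ cells before meiosis and in spermatocytes. The group is called KO-labelled throughout. No label says that the 3 libraries of a group came from separate animals, so the p-values measure the spread between these libraries only. The paper calls the 3 of each condition biological replicates.

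Between 33325483 and 44956193 reads were counted per library. Of the 20327 genes tested with edgeR, 32.7% passed an adjusted p under 0.05, 16.2% with a higher and 16.5% with a lower level in the KO-labelled group. Germ cell markers were lower (10 of 15, summed level 2739 to 3128 CPM in the controls and 1089 to 1447 CPM in the KO-labelled libraries), and Sertoli cell markers were higher (15 of 16, 9364 to 9970 CPM against 15104 to 15986 CPM). In a bulk tissue, fewer cells of a type and less RNA per cell cannot be told apart, and a share of the counts can move because the share of another cell type moved. The tests were therefore repeated with factors from the median ratio of 55 Sertoli, Leydig, macrophage and endothelial markers between libraries, called somatic scaling here. That scaling moved the median over all tested genes from -0.023 to -0.50 on the log2 scale.

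The promoters of the members are shown first, because the CArG box is the feature most of these genes are known for. RefSeq sequences (GRCm38.p6) were matched for 7 of the 10 genes, and *Actg2*, *Myh11* and *Tagln* are named only. The 250 bases upstream of the RefSeq start were searched on both strands for the CArG box, CC, then 6 bases of A or T, then GG, and for the same box with 1 of the inner 6 bases not A or T. Below are *Acta2* and *Myl9*, the only ones of the 7 with a match, and *Cnn1*, the member that passed the test in every alternative run, which has none. Capitals mark the matches, and each sequence runs 5′ to 3′ on the strand of the gene. *Acta2* is chr19:34255374-34255623 (minus strand), *Myl9* chr2:156775214-156775463 (plus strand) and *Cnn1* chr9:22099003-22099252 (plus strand).
Acta2: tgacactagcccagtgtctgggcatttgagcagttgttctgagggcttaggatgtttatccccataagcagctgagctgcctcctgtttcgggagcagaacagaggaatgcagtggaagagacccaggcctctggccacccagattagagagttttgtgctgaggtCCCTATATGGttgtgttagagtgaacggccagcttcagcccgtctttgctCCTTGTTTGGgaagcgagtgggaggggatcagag
Myl9: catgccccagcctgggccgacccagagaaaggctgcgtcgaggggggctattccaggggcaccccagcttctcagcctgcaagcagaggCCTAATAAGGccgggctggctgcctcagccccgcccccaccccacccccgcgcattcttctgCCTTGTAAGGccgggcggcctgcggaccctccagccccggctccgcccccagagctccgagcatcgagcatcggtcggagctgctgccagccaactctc
Cnn1: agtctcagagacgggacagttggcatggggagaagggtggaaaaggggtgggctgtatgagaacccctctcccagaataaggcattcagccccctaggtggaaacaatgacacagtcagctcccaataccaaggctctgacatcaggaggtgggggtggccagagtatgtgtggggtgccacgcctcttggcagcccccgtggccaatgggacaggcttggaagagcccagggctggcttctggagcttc

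In *Acta2* the matches CCCTATATGG and CCTTGTTTGG lie 84 to 75 and 34 to 25 bases upstream of the start, each with 1 inner base off. In *Myl9* the full box CCTAATAAGG lies 161 to 152 bases upstream, and CCTTGTAAGG, with 1 inner base off, 99 to 90 bases upstream. Of 32851 promoters of the same length, 1.47% held a full box and 8.59% a box with at most 1 inner base off. A match is a description of the letters, not a measured binding site, and sites outside this window were not searched.

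*Acta2*, *Cnn1* and *Tagln* were lower in the KO-labelled testes, by 0.26, 0.68 and 0.72 on the log2 scale, and no member was higher. These 3 of 10 lower members stand beside 16.5% of all tested genes called lower, and the 0 of 10 higher beside 16.2% called higher. The median log2 fold change of the 10 was -0.13, against -0.023 over all tested genes. The largest differences were those of *Cnn1* and *Tagln*, which had at most 30.2 and 46.5 CPM in any library, and *Actg2* and *Des*, at the lowest levels, overlapped between the groups. Of the 4 most abundant members, *Acta2* and *Myh11* did not overlap between the groups and *Mylk* and *Myl9* did. DESeq2 called 2 of the 10 lower and 0 higher, against 11.9% and 12.7% of the genes it tested.

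**Figure D1:**
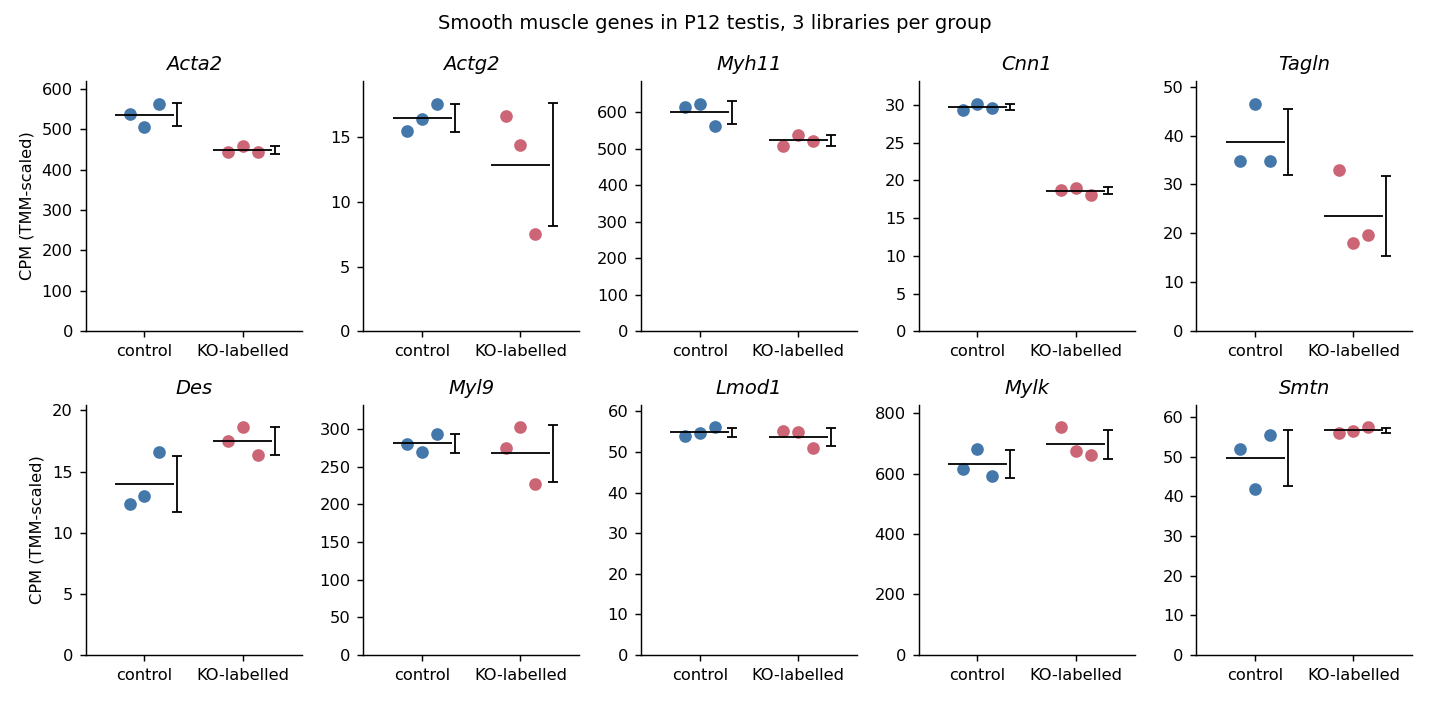
CPM (scaled by TMM) of the 10 smooth muscle genes in the 3 control and 3 KO-labelled libraries, with points for libraries in replicate order, lines at the mean and whiskers of 1 SD. *Cnn1* lies between 29.4 and 30.2 CPM in the controls and between 18.1 and 19.0 CPM in the KO-labelled libraries, and *Actg2* has 1 low library, KO-labelled 3, at 7.54 CPM.

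*Acta2* encodes the smooth muscle alpha actin that is the usual stain for peritubular myoid cells (ENSMUSG00000035783.8, chromosome 19, 34241090 to 34255336 on GRCm38, minus strand). It had 538, 507 and 563 CPM in the controls against 443, 460 and 443 CPM in the KO-labelled libraries. Every KO-labelled library lay below every control, and the mean was 16.3% lower (536 ± 28.2 against 449 ± 9.39 CPM, SD, n = 3 each). The log2 fold change was -0.26 (SE 0.08, 95% interval -0.42 to -0.09, edgeR's quasi-likelihood adjusted p = 0.0175). The call rests on the full set of libraries: without control 1 the edgeR adjusted p was 0.0767, without control 3 it was 0.0558, without KO-labelled 2 it was 0.0545 and without KO-labelled 3 it was 0.0588. With no filter on low counts it was 0.0578, over a range of 6.83e-06 to 0.0767 across 14 alternatives, and the log2 fold change was below 0 in all 14.

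*Actg2*, the smooth muscle gamma actin that is best known from gut and bladder muscle, had 15.5, 16.4 and 17.6 CPM in the controls against 16.7, 14.4 and 7.54 CPM in the KO-labelled libraries (chromosome 6, 83512905 to 83536265). The groups overlap, and the third KO-labelled library stands far below the other 5, with 288 counts against 606 and 617 in its group. The log2 fold change was -0.36 (SE 0.21, 95% interval -0.81 to 0.09, edgeR adjusted p = 0.218), -0.077 without KO-labelled 3 and -0.57 without KO-labelled 1, where the edgeR adjusted p was 0.0480.

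*Myh11* encodes the smooth muscle myosin heavy chain, the motor that pulls on these actins (chromosome 16, 14194535 to 14291372). Its level was 614, 624 and 564 CPM in the controls against 508, 539 and 523 CPM in the KO-labelled libraries. The groups do not overlap, yet the difference did not pass (log2 fold change -0.20, SE 0.08, 95% interval -0.36 to -0.035, edgeR adjusted p = 0.0610). It passed under limma-voom (adjusted p = 0.0362), with at least 10 counts in every library (0.0356 in edgeR) without control 3 (0.0367 in edgeR) and under somatic scaling (log2 fold change -0.68), so its place beside the threshold depends on the setting.

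*Cnn1* encodes calponin 1, a protein that binds actin and restrains the myosin ATPase and that marks mature smooth muscle (ENSMUSG00000001349.5, chromosome 9, 22099216 to 22109630, plus strand). It had 29.4, 30.2 and 29.6 CPM in the controls against 18.8, 19.0 and 18.1 CPM in the KO-labelled libraries. The spread within each group was a few percent of the mean (coefficient of variation 1.36% and 2.43%), and the mean was 37.4% lower in the KO-labelled libraries. The log2 fold change was -0.68 (SE 0.10, 95% interval -0.89 to -0.46, edgeR adjusted p = 1.16e-04). *Cnn1* passed in each of the 14 alternatives, with adjusted p from 3.28e-08 to 0.00142 and log2 fold changes from -1.15 to -0.62.

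*Tagln* encodes transgelin (SM22), an actin-bundling protein and an early marker of smooth muscle (ENSMUSG00000032085.5, chromosome 9, 45929619 to 45936058, minus strand). Its level was 34.8, 46.5 and 34.8 CPM in the controls against 32.9, 17.98 and 19.7 CPM in the KO-labelled libraries. The groups do not overlap, but the first KO-labelled library came within a few CPM of the lowest controls while the other 2 were much lower. The log2 fold change was -0.72 (SE 0.19, 95% interval -1.12 to -0.32, edgeR adjusted p = 0.00833). The call was lost under DESeq2 (adjusted p = 0.0957), without control 2 (edgeR, 0.0896, log2 fold change -0.52) and without KO-labelled 2 (edgeR, 0.0501), within a range of 3.03e-08 to 0.0957 over the 14 alternatives. Of the exon bases of *Tagln*, 67.9% are also covered by genes on the opposite strand (*Pcsk7* and *Gm48529*), and the count depends on the strand setting there.

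*Des* encodes desmin, the intermediate filament protein that anchors contractile bundles in muscle (chromosome 1, 75360329 to 75368579). It had 12.3, 13.0 and 16.6 CPM in the controls against 17.5, 18.6 and 16.4 CPM in the KO-labelled libraries, and the third control overlaps the other group. The log2 fold change of 0.32 (SE 0.14, 95% interval 0.030 to 0.61) did not pass (edgeR adjusted p = 0.0853). It passed without control 3 (0.47, edgeR adjusted p = 0.0213) and turned to -0.15 under somatic scaling.

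The genes of the myosin light chain step showed no difference past the test with TMM factors. *Mylk*, which encodes the calmodulin-dependent kinase that phosphorylates the light chain, had 617, 682 and 593 CPM in the controls against 753, 676 and 663 CPM in the KO-labelled libraries (log2 fold change 0.14, SE 0.08, 95% interval -0.036 to 0.33, edgeR adjusted p = 0.212). *Myl9*, the regulatory light chain itself, had 280, 269 and 294 CPM against 274, 302 and 227 CPM (-0.069, SE 0.10, 95% interval -0.27 to 0.14, edgeR adjusted p = 0.631). The groups overlap for both genes, and the third KO-labelled library was the lowest of all 6 for *Myl9*, whose log2 fold change was 0.047 without it. Under somatic scaling both were called lower, as were 49.5% of all tested genes. There *Mylk* turned to -0.34 (edgeR adjusted p = 0.0202) and *Myl9* stood at -0.54 (edgeR adjusted p = 3.82e-04).

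*Lmod1* encodes leiomodin 1, which starts actin filaments in smooth muscle, and *Smtn* encodes smoothelin, a protein of actin bundles in contractile smooth muscle. *Lmod1* had 53.9, 54.7 and 56.0 CPM in the controls against 55.1, 54.9 and 51.0 CPM in the KO-labelled libraries, the smallest fold change of the 10 (-0.032, SE 0.08, 95% interval -0.21 to 0.14, edgeR adjusted p = 0.803). *Smtn* had 52.0, 41.8 and 55.4 CPM against 56.0, 56.5 and 57.3 CPM, so its groups do not overlap but lie close to each other. Its log2 fold change of 0.19 (SE 0.10, 95% interval -0.032 to 0.41) did not pass (edgeR adjusted p = 0.181). Under somatic scaling it turned to -0.28 and passed (edgeR adjusted p = 0.0372). Of the 10 genes, 4 lay lower in every KO-labelled library than in every control and 1 higher, against 23.8% and 21.7% of all tested genes (5 in either direction, against 45.5%).

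**Figure D2:**
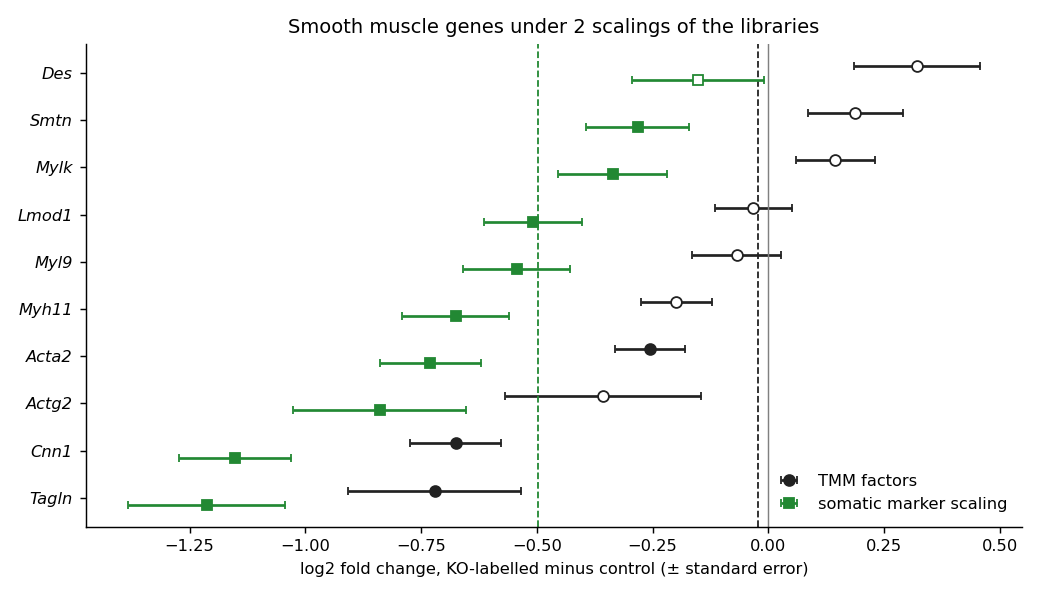
Log2 fold change (KO-labelled minus control, ± standard error) of the 10 smooth muscle genes from edgeR with TMM factors (black circles) and with somatic scaling (green squares), where filled symbols have an adjusted p under 0.05 and dashed lines mark the median of all tested genes (-0.023 and -0.50). The order of the genes is the same, and *Des*, *Smtn* and *Mylk* lie above 0 with TMM and below 0 with somatic scaling.

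Under somatic scaling, 9 of the 10 genes were called lower and 0 higher, with *Des* as the exception (log2 fold change -0.15, edgeR adjusted p = 0.389). With that scaling 49.5% of all tested genes were called lower and 1.84% higher. *Cnn1* was at -1.15 and *Tagln* at -1.21 on the log2 scale, and *Acta2* at -0.73. Relative to the median of all genes, the median of the 10 was -0.11 under both scalings, but 0.0046 without KO-labelled 3. It was 0.22 under both DESeq2 and no filter, where the median is taken over more genes of low count (-0.33 over all genes in both). Under somatic scaling *Cnn1* and *Tagln* stood 0.65 and 0.72 below the median of all genes.

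Per kilobase of exon, levels can be set side by side between genes, though only roughly. The length is that of all annotated exons of a gene, not of the transcripts present in these testes, which were not determined. In the controls the order of the levels was *Acta2* (301 ± 15.9 CPM per kb, SD, n = 3), *Myl9* (242 ± 10.7), *Myh11* (79.0 ± 4.21), *Mylk* (56.0 ± 4.12), *Tagln* (19.5 ± 3.39), *Lmod1* (13.9 ± 0.275), *Smtn* (11.4 ± 1.62), *Cnn1* (10.9 ± 0.148), *Actg2* (10.6 ± 0.681) and *Des* (3.73 ± 0.616). Neighbours in this order did not overlap except *Smtn* with *Cnn1* and *Cnn1* with *Actg2*. In the KO-labelled libraries *Acta2* (252 ± 5.28 CPM per kb) overlapped *Myl9* (231 ± 32.7), and *Tagln* (11.8 ± 4.12) came after *Lmod1* (13.6 ± 0.579) and *Smtn* (12.9 ± 0.149), with overlaps from *Lmod1* down to *Cnn1* (6.80 ± 0.165). The actins stood far apart in both groups, with *Actg2* at 8.27 ± 3.05 CPM per kb in the KO-labelled libraries.

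**Figure D3:**
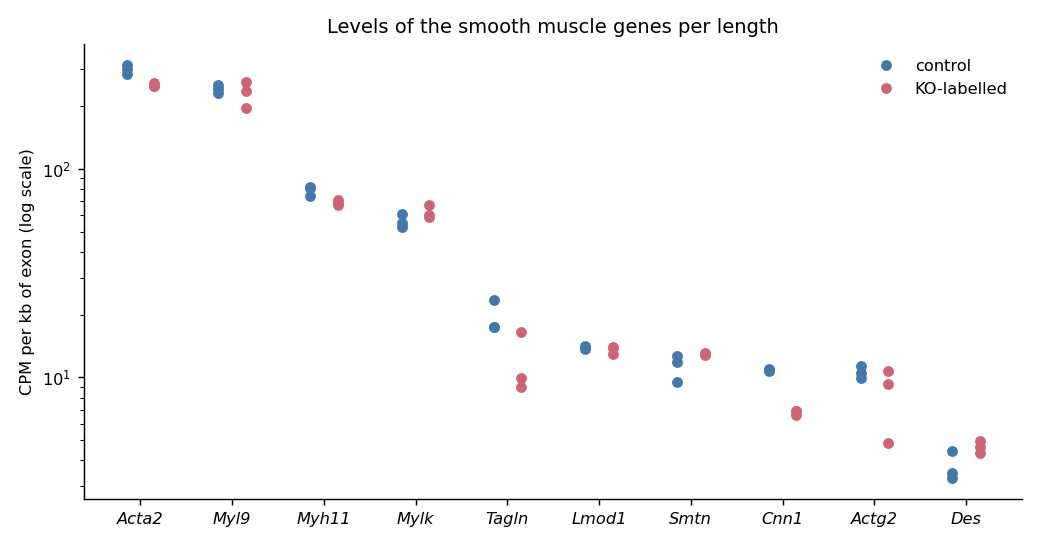
CPM per kilobase of exon on a log scale for the 10 genes in each library, ordered by the control mean. *Acta2* and *Myl9* lie at 195.6 CPM per kb or more in all 6 libraries and *Des* at 4.96 CPM per kb or less.

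A ratio of 2 genes within a library does not depend on how libraries are scaled. The ratio of each other member to *Acta2* was compared over the libraries with an exact permutation test, two-sided, whose smallest p with 3 against 3 libraries is 0.1. The log2 ratio of *Cnn1* to *Acta2* was lower in every KO-labelled library (mean -4.79 ± 0.0914 in the controls, -5.21 ± 0.0277 in the KO-labelled, a difference of -0.42). Those of *Des* (difference 0.59), *Smtn* (0.45), *Mylk* (0.40) and *Lmod1* (0.22) were higher in every KO-labelled library. All 5 reached the smallest exact p of 0.1, or 0.18 after adjustment over 9 ratios, so none passed. *Myh11* (0.057), *Myl9* (0.18), *Actg2* (-0.18) and *Tagln* (-0.50) overlapped between the groups. Because *Acta2* was itself called lower with TMM factors, a gene at an unchanged level stands higher against it. Of all tested genes taken singly, 45.5% did not overlap between the groups. The share for ratios of other genes to *Acta2* was not computed, so the 5 are not read as a trait of the members.

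Several members have a close relative that is used by most cells. Cytoplasmic gamma actin (*Actg1*), non-muscle myosin heavy chain (*Myh9*), calponin 3 (*Cnn3*), transgelin 2 (*Tagln2*) and vimentin (*Vim*), the filament of mesenchymal cells, were paired with *Acta2*, *Myh11*, *Cnn1*, *Tagln* and *Des*. These pairs were chosen after the values had been seen. All 5 relatives were higher in the KO-labelled libraries with TMM factors, *Actg1* by 0.54, *Myh9* by 0.50, *Cnn3* by 0.61, *Tagln2* by 0.52 and *Vim* by 0.41 on the log2 scale (edgeR adjusted p between 3.92e-05 and 0.00284), and under somatic scaling none passed, with values of 0.064, 0.022, 0.13, 0.044 and -0.073. The levels of *Cnn3*, for example, were 91.1, 88.0 and 87.7 CPM in the controls against 145, 134 and 128 CPM in the KO-labelled libraries.

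The log2 ratio of *Cnn1* to *Cnn3* was -1.48, -1.39 and -1.42 in the controls and -2.79, -2.67 and -2.67 in the KO-labelled libraries. That of *Tagln* to *Tagln2* was -0.37, 0.066 and -0.64 against -1.04, -1.87 and -1.87. Both lay lower in every KO-labelled library than in every control, with a mean difference of -1.28 on the log2 scale. *Acta2* to *Actg1* was 1.22, 1.34 and 1.57 against 0.51, 0.75 and 0.48, and *Myh11* to *Myh9* was 1.21, 1.26 and 1.16 against 0.48, 0.58 and 0.49, without overlap either (differences -0.80 and -0.70). The ratio of *Des* to *Vim* overlapped (difference -0.070, exact p = 0.9). Of all tested genes taken singly, 45.5% did not overlap between the groups, and the share for ratios of other gene pairs was not computed. A ratio within a library can still move with the shares of cell types, whose part here was not tested. The exact p was 0.1 for each of the 4 separated pairs, the smallest possible, and 0.125 after adjustment over the 5 pairs, so none passed. As the pairs were picked after their values had been seen, these p-values are a description only. Of the 50-base words in the transcripts of *Actg1*, 37.4% also occur in other genes, and for *Cnn3* 10.3%, so uniquely mapped counts of these 2 are uncertain, whereas for each of the 10 members the share is at most 0.340%.

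**Figure D4:**
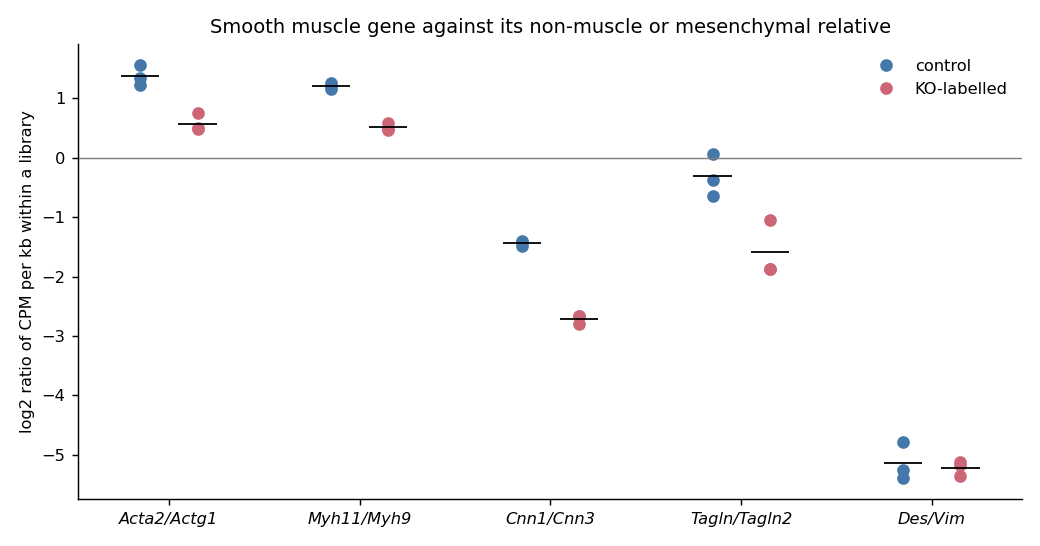
Log2 ratio of CPM per kilobase within each library for 5 pairs of a smooth muscle gene and its relative, with points for libraries and bars for means. The first 4 pairs do not overlap between the groups, with differences of -0.80, -0.70, -1.28 and -1.28, and *Des*/*Vim* does.

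The rest of the contractile apparatus, 33 genes of filaments, myosins and their anchors, was read beside the 10 members. Of 31 tested with TMM factors, 12 were higher and 0 lower (median log2 fold change 0.11), but under somatic scaling 1 was higher and 16 lower (median -0.36, 0.13 above all genes). Over all tested genes the shares were 16.2% higher and 16.5% lower with TMM factors and 1.84% and 49.5% under somatic scaling, and the counts of this and the following lists are read beside these shares. *Synm*, which encodes synemin, an intermediate filament protein that joins desmin or vimentin, stood at 57.7, 63.0 and 57.2 CPM in the controls against 96.7, 104 and 108 CPM in the KO-labelled libraries (0.80, edgeR adjusted p = 6.80e-06), and it stayed higher under somatic scaling (0.32). Genes shared with most other cells make up much of this list. The relatives paired above, *Actg1*, *Myh9*, *Cnn3*, *Tagln2* and *Vim*, belong to it and are among its 12 higher genes.

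Of 28 genes that control contraction, 9 were higher and 4 lower with TMM factors (median 0.076), and 1 was higher and 16 lower under somatic scaling. The 4 and the 16 lower lie near the shares over all genes (16.5% and 49.5%). *Ryr2*, a calcium release channel, was higher by 1.06 and *Kcnma1*, the large-conductance potassium channel, by 0.64 on the log2 scale. *Rock1*, a kinase that acts downstream of RhoA, fell by 0.40 and *Calm2*, a calmodulin gene, by 0.44 (edgeR adjusted p of the 4 genes between 2.01e-04 and 0.00284). *Kcnma1* did not pass under somatic scaling (0.16).

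Of 20 regulators of smooth muscle transcription, 8 were higher and 3 lower with TMM factors (median 0.21), and 0 were higher and 8 lower under somatic scaling. The 3 lower lie near the 16.5% of all genes, and the 8 lower below the 49.5%. *Hey1* and *Hey2*, repressors that Notch signals induce, were lower. *Hey1* had 6.74, 5.91 and 6.66 CPM in the controls against 1.71, 3.17 and 2.59 CPM in the KO-labelled libraries (log2 fold change -1.36, edgeR adjusted p = 3.26e-04), and *Hey2* fell by 0.95 (edgeR adjusted p = 0.00974). *Smad3*, a mediator of TGF-beta signals, was higher by 0.56 (edgeR adjusted p = 1.06e-04), and *Gata6*, a zinc finger factor, by 0.55 (edgeR adjusted p = 1.16e-04). Neither of these 2 passed under somatic scaling, where they stood at 0.082 and 0.080.

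The factors known to bind or act at the CArG box are named beside the promoters shown above, and whether they act on these genes here was not tested. *Srf*, serum response factor, had 83.3, 81.2 and 95.3 CPM in the controls against 103, 108 and 118 CPM in the KO-labelled libraries (log2 fold change 0.34, edgeR adjusted p = 0.00845, with TMM factors, and -0.13 under somatic scaling, adjusted p = 0.308 in edgeR). Its coactivator *Myocd* had 40.0, 41.7 and 37.5 CPM against 34.5, 36.2 and 32.2 CPM, without overlap, and did not pass with TMM factors (-0.21, edgeR adjusted p = 0.0950) but was lower under somatic scaling (-0.69, edgeR adjusted p = 2.63e-05). *Mrtfb*, a related coactivator, was higher by 0.23 with TMM factors (edgeR adjusted p = 0.0358) and stood at -0.25 under somatic scaling (0.0751 in edgeR).

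**Figure D5:**
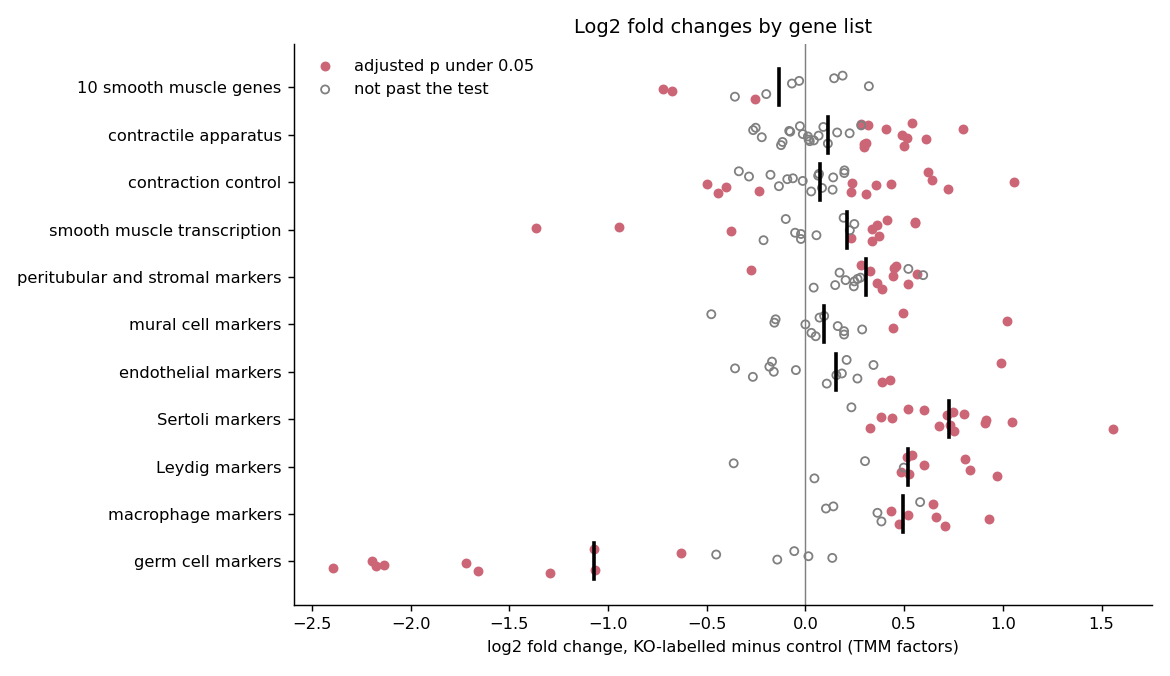
Log2 fold changes (KO-labelled minus control, TMM factors) of the tested genes of each list, filled where the edgeR adjusted p is under 0.05, with a bar at the median. The median of the 10 smooth muscle genes is -0.13, and those of the other 9 lists plotted, apart from the germ cell markers, lie between 0.076 and 0.72, of which 6 are below 0 under somatic scaling. The skeletal and cardiac muscle, epididymis, adipocyte and mesothelium lists are not plotted.

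Markers of cells that carry or neighbour the smooth muscle programme were read beside the members. Of 20 peritubular and stromal markers, 9 were higher and 1 lower with TMM factors (median 0.30), and 0 were higher and 3 lower under somatic scaling. *Igf1*, a growth factor of stromal and Leydig cells, was higher by 0.57 with TMM factors (edgeR adjusted p = 4.58e-04) and stood at 0.085 under somatic scaling, where it did not pass. *Fbln1*, a matrix protein, fell by 0.28 (edgeR adjusted p = 0.0274), a call lost without control 2, control 3, KO-labelled 2 or KO-labelled 3. The summed level of the list was 6686 to 8014 CPM in the controls and 7678 to 11187 CPM in the KO-labelled libraries, which overlap, and the first KO-labelled library was the highest of its group for 16 of the 20 genes.

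Of 15 mural cell markers (pericytes and vascular smooth muscle), 3 were higher and 0 lower, among them *Ebf1* (0.49) and *Vtn* (1.02), and the summed level was 499.7 to 528.4 CPM against 584 to 593 CPM. The 3 higher lie near the 16.2% of all genes. Under somatic scaling 1 was higher (*Vtn*, 0.55) and 5 lower, beside 49.5% of all genes lower, and *Ebf1* stood at 0.019. Endothelial markers had 3 of 15 higher, Leydig markers 8 of 12 and macrophage markers 7 of 12, with 0 lower in each. Under somatic scaling, which these and the Sertoli markers set, these lists had 1, 3 and 1 higher and 8, 2 and 0 lower. Of the 16 Sertoli markers, 4 were higher and 0 lower there. The medians under that scaling were -0.31 (endothelial), 0.051 (Leydig), 0.018 (macrophage) and 0.25 (Sertoli), so these lists did not move alike. Scaling by a single one of them was not tested. The summed level of the 10 smooth muscle genes was 2224 to 2285 CPM in the controls and 2027 to 2176 CPM in the KO-labelled libraries, 5.84% lower on the mean and without overlap.

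Tissue taken along with the testis could add muscle genes of its own. Of 22 skeletal and cardiac muscle markers 15 were tested, 1 was higher (*Myh6*, 0.70, and 0.22 under somatic scaling, where it did not pass) and 2 were lower (*Actn3*, -0.76, and *Myl7*, -1.76), and the summed level was 180 to 204 CPM in the controls and 169 to 211 CPM in the KO-labelled libraries. Within this list *Acta1* and *Ckm* had means of 0.167 and 0.254 CPM in the controls and of 0.184 and 0.190 CPM in the KO-labelled group. These 2 genes were named after their values had been seen. Other genes of the list therefore carry nearly all of its summed level, and the cells they come from were not tested. Epididymis markers summed to 11.1 to 12.4 CPM against 12.5 to 14.5 CPM, with *Lcn8* at 0. Of these 12 genes only 3 were tested, and 0 passed. Adipocyte markers summed to 8.56 to 14.1 CPM against 19.9 to 22.8 CPM, with *Lep* and *Cfd* at 0. Of these 10 genes only 3 were tested, 1 was higher (*Plin1*, 1.12) and 0 lower. The median log2 fold change of the 3 was -0.18, so *Plin1* does not stand for its list. Mesothelium markers summed to 130 to 135 CPM against 116 to 162 CPM. All 10 were tested, 0 were higher and 1 was lower (*Bnc1*, -0.74). *Bnc1* went against its list, whose median log2 fold change was 0.48 with TMM factors and 0.017 under somatic scaling. The part of these cells, and of the stromal, mural, endothelial and germ cells, in the levels of the 10 genes was not tested.

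The mean centred log2 CPM of the 10 genes was 0.051, 0.087 and 0.12 in the controls and 0.025, -0.060 and -0.23 in the KO-labelled libraries, so the third KO-labelled library was the lowest. It was the lowest of its group for 6 of the 10 genes, and also for 16 of the 20 peritubular and stromal markers. How often it was the lowest over all tested genes was not computed, so these counts are not read as a trait of the 2 lists. Among 11835 genes with a mean of at least 5 CPM, those whose log2 CPM followed this mean most closely over the 6 libraries were *Nlrp5-ps*, *Sgms2*, *Rttn*, *Immp1l* and *Pttg1*, with Pearson r from 0.972 to 0.977, given as a description. None of the 5 differed between the groups past the test (edgeR adjusted p from 0.0553 to 0.386).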

How the data were processed

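RNA of whole P12 testes was sequenced as single-end reads after random and poly(T) priming with strand selection and depletion of targeted transcripts. The authors used cutadapt for trimming, HISAT2 for alignment to GRCm38 and featureCounts 1.6.4 with GENCODE M18 for strand-specific counting. The deposited table holds raw counts per gene, without reads that had several alignments or lay in several genes. Genes were named from GENCODE M21 (54165 of 54232). The members and gene lists were chosen with earlier results of these data known. Libraries with the same label were compared, and none agreed within sampling noise (chi-square per degree of freedom at least 11.0).

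Counts were scaled by TMM, low genes were removed with filterByExpr, and all genes left were tested with the quasi-likelihood test of edgeR 4.0.16 in R 4.3.3, with Benjamini-Hochberg adjustment over 20327 genes. Intervals use the test's degrees of freedom. Ratios within libraries were compared with exact permutation tests. The 14 alternatives were DESeq2 1.42.0, limma-voom (limma 3.58.1), RLE and upper-quartile factors, somatic scaling, no filter, at least 10 counts in every library, a replicate block, and leaving out 1 library at a time. The text names all 10 members, the 2 called genes of each list with the lowest adjusted p, higher and lower (left out for the Sertoli, Leydig, macrophage, endothelial and germ cell lists unless a setting turned their sign), the 5 genes closest in pattern, *Dis3l2* and *Dis3*, apart from 1 gene that is not reported here. *Srf*, *Myocd*, *Mrtfb*, the 5 relatives and the genes listed near 0 were named after their values had been seen.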

Additional observations from a re-analysis of the deposited data

How the results depend on the processing

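With 3 libraries a group, the log2 fold changes of *Acta2* (-0.26) and *Myh11* (-0.20) sat near the threshold, and no exact test could reach 0.05. The larger ones of *Actg2* (-0.36) and *Des* (0.32) did not pass, since the threshold depends on the spread of each gene. The scaling mattered most. Under somatic scaling 9 members were called, 9 of them lower, the median of the 10 was -0.61, and 3 lists had more genes higher than lower in place of 10. There the sign turned for the members *Des* (-0.15), *Mylk* (-0.34) and *Smtn* (-0.28). It also turned for *Dis3l2* (-0.25), *Cdh5* (-0.087), *Csf1r* (-0.0059), *Vim* (-0.073), *Srf* (-0.13) and *Mrtfb* (-0.25). The part of the scaling in these values follows from its construction, which lowers every KO-labelled value relative to TMM.

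Leaving out 1 library at a time gave 1 to 4 members called, 0 to 1 higher and 1 to 4 lower, with medians from -0.18 to -0.032. Between 9 and 11 lists then had more genes higher than lower, 5 to 6 ratios to *Acta2* did not overlap, and 4 of the pairs with a relative. The count of 1 came without KO-labelled 2, where only *Cnn1* passed, and the 1 higher member without control 3 was *Des*. *Myl9* ranged from -0.16 to 0.047, the last without KO-labelled 3, and *Lmod1* from -0.046 to 0.013, with values above 0 without control 2 (0.0058) and without KO-labelled 3. DESeq2 and no filter each left 2 members called, limma-voom and the stricter filter 4, and RLE and upper-quartile factors 3.

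With the replicate number as a block, 3 members were called, all lower, with a median of -0.14. Libraries of the same number did not deviate together (correlations of -0.00140, -0.0126 and 0.0139), and the numbers are not used as pairs.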

Other observations

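*Tagln* was highest in control 2 among the controls and in the first KO-labelled library among the KO-labelled. This order was looked for in other genes after the values had been seen. Of the 20 peritubular and stromal markers, 5 (*Col1a1*, *Col1a2*, *Col3a1*, *Lum* and *Fbln1*) were highest in the same 2 libraries, and of the 10 smooth muscle genes 2 were, *Tagln* and *Mylk*. *Acta2* and *Cnn1* were not highest in this pair of libraries. The share of all tested genes with this order was not computed, so these counts are not read as a trait of the genes.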
